A study of Mus musculus with 8 samples.

Results

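Forkhead box O (FoxO) transcription factors and the muscle ubiquitin ligases they are known to induce were followed here in mouse tibialis anterior of Carm1 skm-/- and control animals. The set holds 10 genes, picked by name: the FoxO factors Foxo1, Foxo3 and Foxo4, the F-box ligases Fbxo32, Fbxo30, Fbxo31, Fbxo40 and Fbxo21, the RING ligase Trim63 and the glucocorticoid target Klf15. All 10 were among the 24341 genes listed, and all 10 passed the filter on low values, which left 11096 genes for testing. Tibialis anterior is a fast muscle at the front of the shin, and it was sampled from 8 chow-fed mice at 12 weeks, which the study describes as male. In 4 animals, labelled Carm1 skm-/-, floxed Carm1 was combined with the transgene HSAcre Tg/0, and the 4 control animals, Carm1 skm+/+, carried floxed Carm1 with HSAcre 0/0. The human skeletal actin promoter drives Cre in muscle fibres, so other cells of the muscle keep Carm1, and the effects of Cre and of the Carm1 deletion cannot be told apart. Carm1 encodes a protein arginine methyltransferase and transcriptional coactivator, and the design contrasts muscle with and without Cre acting on the floxed gene.

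FoxO factors are held in the cytoplasm when insulin or growth factor signalling activates AKT, and enter the nucleus when that signal falls, as in fasting or disuse. There they switch on Fbxo32 (atrogin-1) and Trim63 (MuRF1), the ligases that mark muscle proteins for the proteasome, together with autophagy genes. F-box proteins are the substrate-binding part of SKP1-CUL1-F-box (SCF) ligases, whereas RING ligases such as MuRF1 bind the conjugating enzyme themselves. Glucocorticoids act on the same genes through their receptor, which also induces Klf15. Since AKT controls FoxO proteins by location, their transcript levels alone do not establish their activity, which was not measured.

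The promoter of Trim63 is shown because it holds both inputs side by side, and that of Klf15 because it is a glucocorticoid target built differently. Both are RefSeq promoters (GRCm38.p6, plus strand), from 250 bases before to 50 bases after the gene's start, at chr4:134314870-134315169 and chr6:90462326-90462625. Capitals mark the FoxO element TGTTTAC, the glucocorticoid response palindrome (GAACA and TGTTC with 3 bases between) and the E-box CACGTG, each searched on both strands.
Trim63: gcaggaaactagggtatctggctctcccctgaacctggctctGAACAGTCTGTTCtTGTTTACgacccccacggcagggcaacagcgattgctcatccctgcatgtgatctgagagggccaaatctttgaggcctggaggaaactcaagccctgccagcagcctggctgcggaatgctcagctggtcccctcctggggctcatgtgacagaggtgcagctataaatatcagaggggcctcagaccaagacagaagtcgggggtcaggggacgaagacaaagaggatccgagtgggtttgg
Klf15: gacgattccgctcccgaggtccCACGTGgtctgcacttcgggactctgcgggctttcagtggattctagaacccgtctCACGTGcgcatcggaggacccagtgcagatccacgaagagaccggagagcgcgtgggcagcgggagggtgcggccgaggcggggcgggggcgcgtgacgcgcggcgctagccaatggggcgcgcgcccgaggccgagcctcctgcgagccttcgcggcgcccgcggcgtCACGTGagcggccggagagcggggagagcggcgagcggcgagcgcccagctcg

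In the Trim63 promoter the palindrome ended 1 base before the FoxO element. The FoxO element was found in 3.65% of 32851 promoters of this length, the palindrome in 0.0578%, and both in 2 promoters, of which Trim63 is 1. The Klf15 promoter held 3 copies of CACGTG, the letters bound by CLOCK-BMAL1 and other E-box factors, which 29 of the promoters (0.0883%) matched or exceeded. CACGTG occurred at least once in 7.15% of promoters. Of the 10 genes, 8 had a promoter in the table, and the 3 motifs were found in no other member's window. These matches are letters in a window and not measured binding.

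Levels are FPKM, a measure of fragments normalised to transcript length and library size, divided by a factor per library, here scaled FPKM. Differences are knockout minus control on the log2(scaled FPKM + 1) scale, which understates changes of low genes, with 95% intervals and p-values of limma adjusted by Benjamini-Hochberg over all 11096 genes. Carm1 itself stood at 30.5 ± 4.82 in controls and 15.4 ± 2.57 in knockouts (SD, n = 4 each). The knockout mean was 50.6% of that in controls, with an exact permutation p of 0.0286 (2-sided, the smallest that 70 assignments can give). Fast-fibre markers were abundant in every library, with Pvalb between 7697 and 18666 and Tnni2 between 15324 and 34505 scaled FPKM, while Acta1, Ckm and Tnnt3 were listed at 0 in some libraries. Against their description as male, control 1, knockout 2 and knockout 4 held Xist, the RNA of the inactive X chromosome, at 19.6, 22.9 and 20.5 FPKM, and the other 5 libraries at most 0.0662. The Y-linked transcript Eif2s3y ran opposite to Xist. It reached no more than 0.112 FPKM where Xist was present and no less than 42.3 FPKM elsewhere. The type IIa myosin gene Myh2 lay between 119 and 173 scaled FPKM in the 5 libraries without Xist. Like Xist, Myh2 was high in the other 3 libraries, between 782 and 1442 scaled FPKM. Differences of the genes that followed these libraries are therefore also given in other fits. In bulk muscle, fewer cells of a type and less RNA per cell cannot be told apart.

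None of the 10 genes passed the test, and for none did the 4 control and the 4 knockout values stand apart without overlap. Limma called 40 of the 11096 genes, or 0.36%, and 8.31% of the genes had no overlap between the groups. At an unadjusted p under 0.05 the count was also 0 of 10, against 13.1% of the genes tested. The members differed by a median of 0.14, with 7 higher and 3 lower in the knockout, against a median of -0.00 over all genes tested. The smallest adjusted p was 0.457, for Foxo1. In every alternative fit limma called 0 of the members tested, and between 0 and 1 members had an unadjusted p under 0.05.

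**Figure D1:**
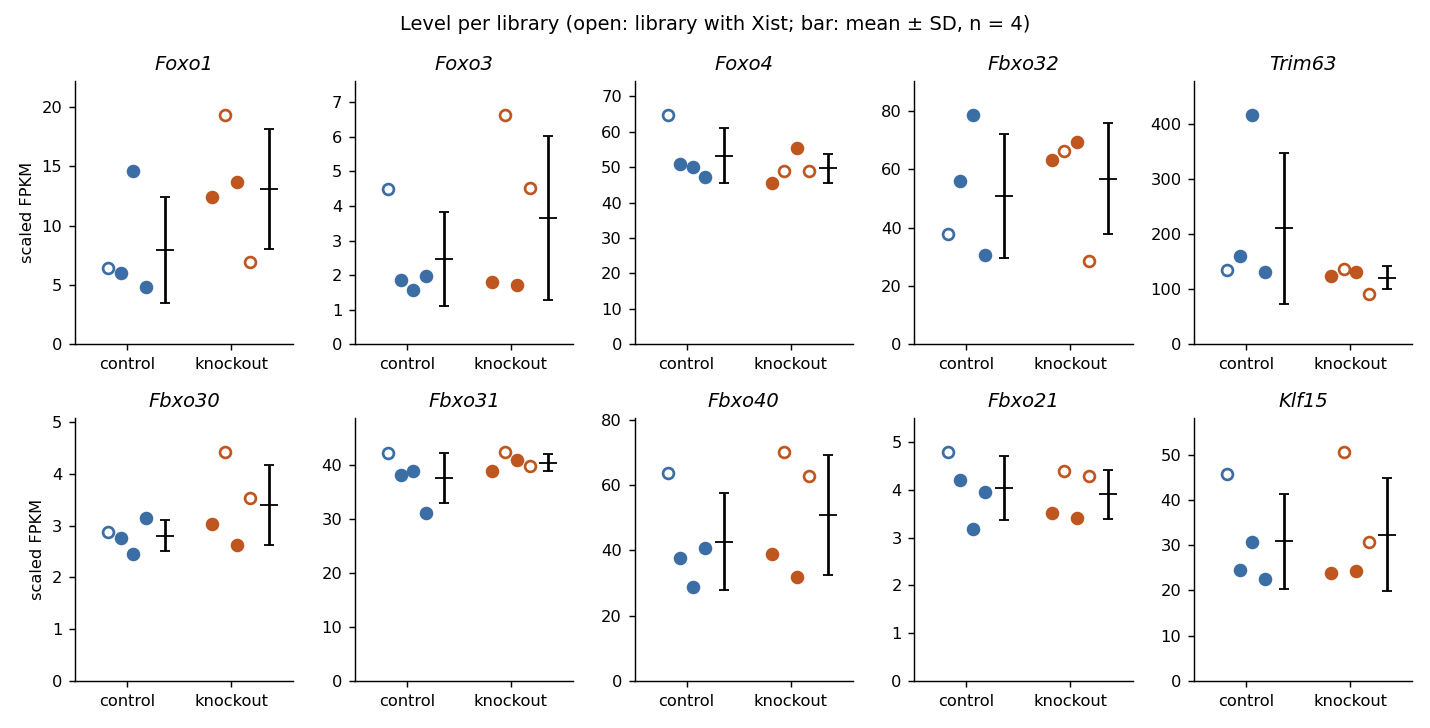
Scaled FPKM of each gene (vertical axis, from 0) in control and knockout libraries, with open points for the 3 libraries that held Xist and a bar for the mean ± SD of 4 libraries. Foxo3 and Fbxo40 are high in the open points of both groups, and Trim63 is high in 1 control.

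By level the genes fell into 4 tiers, which did not overlap except through Foxo3. Trim63 was the highest of the 10 in all 8 libraries, with a mean of 166 scaled FPKM, and its lowest value exceeded the highest of Fbxo32. The next 5, Fbxo32, Foxo4, Fbxo40, Fbxo31 and Klf15, had means of 53.8, 51.5, 46.7, 39.0 and 31.6 scaled FPKM. Neighbours in this order were not separated, since each pair stood in it in only 5 or 6 of 8 libraries. Foxo1 followed with a mean of 10.5, below every value of Klf15 and above every value of Fbxo21. Fbxo21, Fbxo30 and Foxo3 were lowest, with means of 3.97, 3.10 and 3.06 scaled FPKM, and they overlapped. Foxo3 reached 6.62 in knockout 2, above the lowest value of Foxo1, 4.85 in control 4.

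Among the transcription factors, Foxo1 is best known for shifting muscle fuel use in fasting and for driving atrophy when overexpressed. It lies on chromosome 3 from 52268337 to 52350109 (mm10). Control libraries 1 to 4 stood at 6.42, 5.99, 14.6 and 4.85 scaled FPKM and knockout libraries 1 to 4 at 12.4, 19.3, 13.7 and 6.97. Of the controls 3 lay below every knockout, and control 3 lay above 3 of the 4 knockouts, so the groups overlapped. The means were 7.97 ± 4.48 and 13.1 ± 5.06 (SD, n = 4 each), a log2 difference of 0.68 (interval -0.11 to 1.48, adjusted p = 0.457). Without control 3 the control mean was 5.76 ± 0.811 (SD, n = 3) and the log2 difference 0.99 (interval 0.34 to 1.64), which also did not pass over all genes (adjusted p = 0.232). That was the largest difference when 1 library was left out. The range was 0.48 to 0.99, with adjusted p from limma between 0.232 and 0.700. With presence of Xist as a covariate the difference was 0.73 (adjusted p = 0.341). The annotation places an antisense transcript, Gm20402, within Foxo1, and without strand its reads cannot be separated.

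Foxo3, the factor most tied to induction of atrogin-1 and of autophagy in mouse muscle, lies on chromosome 10 from 42185786 to 42276742. It stood at 4.48, 1.86, 1.57 and 1.96 scaled FPKM in controls 1 to 4 and at 1.79, 6.62, 1.70 and 4.52 in knockouts 1 to 4. The 3 high libraries were control 1, knockout 2 and knockout 4, the 3 with Xist, at 4.48 or more, and the other 5 were at 1.96 or less. The difference between genotypes was 0.35 (interval -0.49 to 1.20, adjusted p = 0.747). It was 0.07 (interval -0.21 to 0.35, adjusted p = 0.792) with Xist as a covariate, -0.02 in the 5 libraries without Xist and -0.27 without knockout 2 and knockout 4. The last of these fits, here and below, keeps control 1, a library with Xist, so Xist is then present among controls only.

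Foxo4 was the most abundant FoxO transcript and among the steadiest of the 10. The gene is X-linked, at 101254528 to 101260873. Controls 1 to 4 stood at 64.7, 50.8, 50.2 and 47.3 scaled FPKM and knockouts 1 to 4 at 45.4, 49.0, 55.3 and 49.0. Apart from control 1 all libraries lay within 45.4 and 55.3, whether or not they held Xist. The log2 difference was -0.09 (interval -0.34 to 0.16, adjusted p = 0.784). Foxo6, a family member known mainly from brain, stood at 5.02 ± 1.89 in controls and 4.12 ± 1.26 in knockouts (adjusted p = 0.804). Of the FPKM summed over these 4 FoxO genes, Foxo4 alone made up between 62.2% and 80.1% per library. The share of Foxo1 was 11.6% ± 6.44 in controls and 18.3% ± 5.80 in knockouts (SD, n = 4 each), and the ranges overlapped. The summed FoxO level was 68.7 ± 9.62 and 70.5 ± 7.50 scaled FPKM. No test was run on the shares or the sum.

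**Figure D2:**
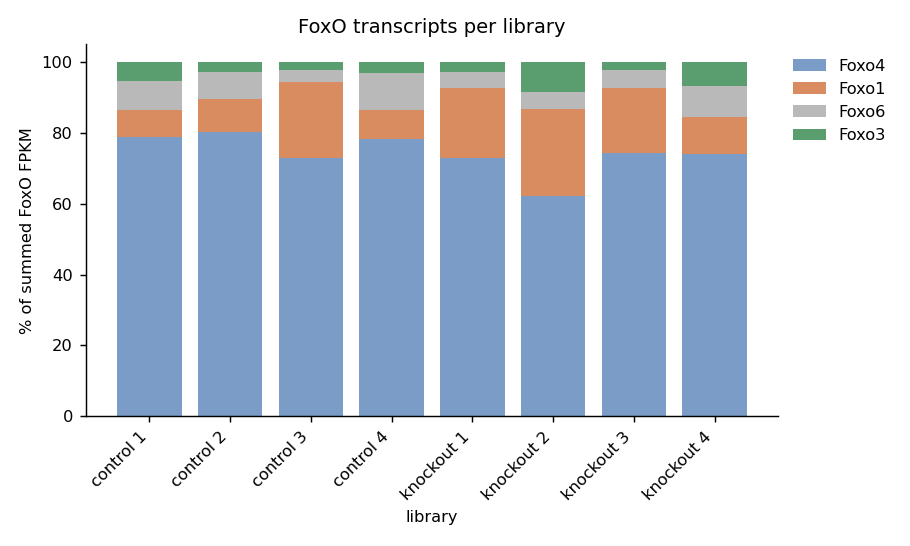
Share of Foxo4, Foxo1, Foxo6 and Foxo3 in the summed FoxO FPKM (vertical axis, %) of each library. Foxo4 makes up between 62.2% and 80.1% throughout, and the Foxo1 share is between 7.82% and 24.5%.

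Trim63 and Fbxo32 are the classic ligases of atrophy: MuRF1 marks thick-filament proteins such as myosin heavy chain, and atrogin-1 marks MyoD and the initiation factor eIF3f. Trim63 lies on chromosome 4 from 134315120 to 134329629. Its values were 136, 160, 416 and 131 scaled FPKM in controls 1 to 4 and 125, 137, 132 and 90.8 in knockouts 1 to 4. Control 3 lay far above the next highest library, and the other 3 controls overlapped the knockouts. The means were 211 ± 137 and 121 ± 20.7 (SD, n = 4 each), a log2 difference of -0.63 (interval -1.42 to 0.16, adjusted p = 0.488). Without control 3 the control mean was 142 ± 15.3 (SD, n = 3) and the difference -0.24 (interval -0.60 to 0.11, adjusted p = 0.593), so that 1 library set most of the difference.

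Fbxo32 lies on chromosome 15 from 58175879 to 58214892, where its 5' end overlaps an antisense transcript, Gm15943. Controls 1 to 4 stood at 37.9, 56.0, 78.6 and 30.7 scaled FPKM and knockouts 1 to 4 at 63.3, 66.3, 69.3 and 28.5. Control 3 was the highest library and knockout 4 the lowest, and the groups overlapped over nearly their whole range. The log2 difference was 0.17 (interval -0.63 to 0.97, adjusted p = 0.874), and -0.04 without control 4. The ratio of Trim63 to Fbxo32 was 3.57, 2.85, 5.29 and 4.28 in controls 1 to 4 and 1.97, 2.06, 1.90 and 3.19 in knockouts 1 to 4. The ratio overlapped between the groups only through control 2 and knockout 4, with means of 4.00 ± 1.04 and 2.28 ± 0.609 (SD, n = 4 each), and was not tested.

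The other F-box ligases varied less between libraries, with Fbxo40 the most variable of them. Fbxo40, a muscle-restricted F-box protein that marks IRS1 and so damps IGF1 signalling, lies on chromosome 16 from 36966073 to 36979136. It stood at 63.5, 37.7, 28.7 and 40.6 scaled FPKM in controls 1 to 4 and at 38.8, 70.05, 31.7 and 62.7 in knockouts 1 to 4. As with Foxo3, the 3 libraries with Xist were highest, at 62.7 or more, and the other 5 were at 40.6 or less. The difference between genotypes was 0.23 (interval -0.44 to 0.91, adjusted p = 0.796). It was 0.02 (interval -0.27 to 0.30, adjusted p = 0.957) with Xist as a covariate, -0.0087 in the 5 libraries without Xist and -0.22 without knockout 2 and knockout 4. The last of these fits keeps control 1, at 63.5, among the controls.

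Fbxo30, known as MUSA1 and restrained by BMP signalling, lies on chromosome 10 from 11281330 to 11297969. Its levels were 2.87, 2.75, 2.45 and 3.16 scaled FPKM in controls 1 to 4 and 3.03, 4.42, 2.62 and 3.53 in knockouts 1 to 4. Knockout 2 was highest, and the difference of 0.20 (interval -0.10 to 0.49, adjusted p = 0.557) became 0.01 without knockout 2 and knockout 4. Fbxo21, known as SMART, on chromosome 5 from 117976770 to 118010191, stood at 4.03 ± 0.667 in controls and 3.91 ± 0.509 in knockouts (SD, n = 4 each), a difference of -0.03 (interval -0.30 to 0.24, adjusted p = 0.929). With Xist as a covariate it was -0.10 (adjusted p = 0.553), in the 5 libraries without Xist -0.09 and without knockout 2 and knockout 4 -0.16. Its 3 highest libraries were again those with Xist, at 4.28 to 4.79, above 3.18 to 4.21 in the other 5. Fbxo31, which marks cyclin D1 in other cells, lies on chromosome 8 from 121549443 to 121578806, inside the span of Gm20388, annotated on the opposite strand. It varied least of the 10, between 31.1 and 42.3 scaled FPKM, with means of 37.5 ± 4.68 and 40.4 ± 1.53 (SD, n = 4 each) and a difference of 0.11 (interval -0.11 to 0.33, adjusted p = 0.686).

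Klf15, a Krüppel-like factor that switches on amino acid catabolism and is induced by glucocorticoids, lies on chromosome 6 from 90462626 to 90475209. Controls 1 to 4 stood at 45.8, 24.6, 30.8 and 22.5 scaled FPKM and knockouts 1 to 4 at 23.8, 50.6, 24.3 and 30.7. Control 1 and knockout 2 were high, while knockout 4, the other library with Xist, lay with control 3. The log2 difference was 0.05 (interval -0.58 to 0.69, adjusted p = 0.958), and -0.13 (adjusted p = 0.697) with Xist as a covariate.

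**Figure D3:**
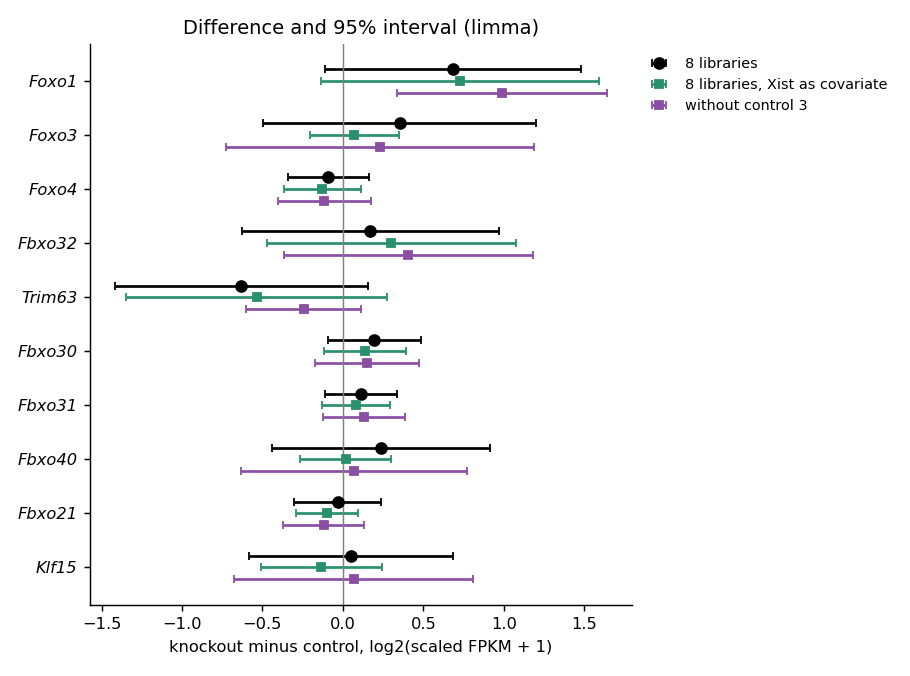
Knockout minus control on the log2(scaled FPKM + 1) scale (horizontal axis) with 95% intervals from limma for each gene over 8 libraries, with Xist as a covariate, and without control 3. All intervals over 8 libraries include 0. With the covariate those of Foxo3 and Fbxo40 narrow most, and those of Foxo1 and Trim63 are wider. Without control 3 the interval of Foxo1, 0.34 to 1.64, lies above 0.

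The values varied among animals in 2 recurring arrangements, which were noticed after the values were seen. In the first, Foxo1, Fbxo32 and Trim63 were each highest in control 3 and lowest in control 4 among controls, and each lowest in knockout 4 among knockouts. After each group's mean was subtracted, the Pearson r over 8 libraries was 0.88 for Foxo1 with Fbxo32, 0.89 for Foxo1 with Trim63 and 0.82 for Fbxo32 with Trim63. Without control 3 these were 0.82, 0.88 and 0.98 over 7 libraries. They are given as a description of 45 pairs among the 10 genes, with no test, and points in them share the scaling of their library. Klf15 did not follow, with r of 0.35, 0.02 and 0.06 to these 3 genes, against 0.88 to Foxo3 and 0.75 to Fbxo40. The highest r of the 45 pairs lay outside this arrangement, at 0.96 for Foxo3 with Fbxo40 and 0.94 for Fbxo40 with Fbxo21.

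By the same measure, the 3 genes outside the set most like Foxo1 were Lpin1, the phosphatidate phosphatase lipin 1, at r of 0.98, Stard5, a sterol-binding protein, at 0.96, and the kinase Alpk2 at 0.95. Those most like Fbxo32 were the claudin Cldn15 at 0.99, Pdk4, the kinase that shuts pyruvate dehydrogenase in fasting, at 0.98, and the folate enzyme Mthfs at 0.97. Those most like Trim63 were Serinc3 at 0.98, the nucleolar Gnl3 at 0.97 and Ifrd1 at 0.96. For Gnl3 and Ifrd1 the r was 0.71 and 0.77 without control 3, and for the other genes most like Foxo1, Fbxo32 and Trim63 it lay between 0.90 and 0.99. Most like Klf15 were the zinc-finger factor Rreb1 at 0.99, Ahctf1 at 0.98 and the GTP-binding Gtpbp4 at 0.98. As the highest of 11096 coefficients over 8 libraries, these values are descriptions. Pdk4 stood at 102, 172, 301 and 74.4 scaled FPKM in controls 1 to 4 and 183, 126, 167 and 34.1 in knockouts 1 to 4, again highest in control 3 and lowest in knockout 4. Control 3 was the highest of 8 libraries for 2 of the 10 members, against 16.3% of the genes tested. Knockout 2 was the highest for 6 members (Foxo1, Foxo3, Fbxo30, Fbxo31, Fbxo40 and Klf15), against 15.1%, and control 1 for Foxo4 and Fbxo21, against 12.8%. Control 3 was also highest for 5 of 23 genes of the glucocorticoid list, beside the same 16.3% of the genes tested. It was highest for 5 of 13 genes of the SCF core list and for 1 of 17 other F-box genes. Within the glucocorticoid list, Fkbp5, a chaperone induced by glucocorticoids, was highest in control 3 at 58.1 scaled FPKM, as was the metallothionein Mt2 at 260. Cebpd, in the same list, stood at 9.70 in control 3, the lowest of the controls. These genes were singled out after their values were seen, and a cause was not tested.

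**Figure D4:**
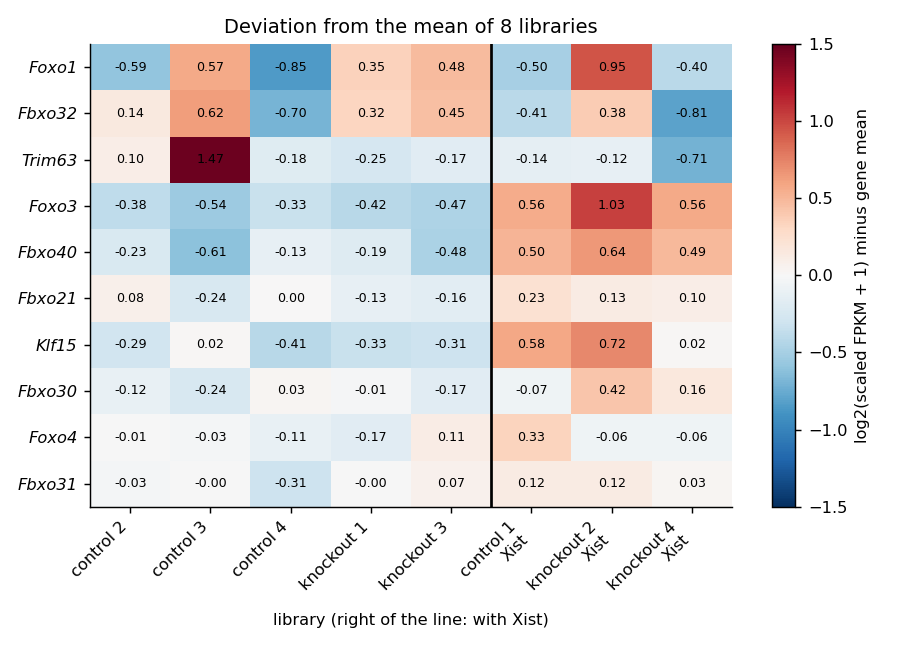
Deviation of each gene from its own mean over 8 libraries on the log2(scaled FPKM + 1) scale (colour and printed number), with genes in rows and libraries in columns, and the 3 libraries with Xist right of the line. Foxo3 and Fbxo40 are above their mean in all 3 of these libraries and below it in the other 5, and Trim63 deviates by 1.47 in control 3.

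In the second arrangement Foxo3, Fbxo40 and Fbxo21 had all 3 libraries with Xist above all 5 without. This held for 3 of 10 members and for 11.4% of the genes tested, and the reverse held for 0 of 10 members and for 9.37% of the genes. Mean levels with and without Xist were 5.21 and 1.77 scaled FPKM for Foxo3, 65.4 and 35.5 for Fbxo40 and 4.49 and 3.66 for Fbxo21. The 3 libraries are not a labelled group, so no test was made. Myh2 moved with the same libraries, and the part of fibre type or of sex in these values was not tested.

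The pathways around the members were described by lists of genes, with no test of a list. None of the 10 lists held a gene that passed over all genes tested. Genes without overlap between the groups, 8.31% of all genes tested, numbered 1 of 30 FoxO regulators and 2 of 28 other FoxO targets. They numbered 1 of 23 in the glucocorticoid list, 4 of 18 in the KLF15 list, 2 of 11 BMP and SMAD genes and 2 of 8 denervation genes. Among other F-box genes and among other ligases they numbered 1 of 17 each. There were 0 in the SCF core list and 0 in the ubiquitin list. Of the regulators of FoxO, such as AKT, sirtuin and 14-3-3 genes, 12 of 30 were higher and 18 lower, with a median of -0.03. Sirt1, a deacetylase of FoxO proteins, stood at 2.85 ± 0.385 and 3.92 ± 0.407 scaled FPKM, a difference of 0.36 (adjusted p = 0.177) with no overlap between the groups. The stress kinase gene Mapk14 stood at 44.9 ± 7.19 and 36.3 ± 4.82 (adjusted p = 0.404). Of other FoxO targets, among them autophagy, antioxidant and cell-cycle genes, 8 of 28 were higher and 20 lower, with a median of -0.07. The superoxide dismutase Sod2 was at -0.31 (adjusted p = 0.297), and Mstn, myostatin, at -1.16 (adjusted p = 0.0764), neither overlapping between the groups.

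In the list of the glucocorticoid receptor and its targets 6 of 23 genes were higher and 17 lower, with a median of -0.23. Mstn is also in this list, and the other gene with the smallest p was Cebpd, a C/EBP transcription factor, at 27.4 ± 15.8 and 12.0 ± 6.90 scaled FPKM (adjusted p = 0.414). The list of amino acid catabolism linked to KLF15 had 12 of 18 genes higher and a median of 0.05. Among the lower genes, and named outside the choice by p, were Gpt2 at -0.79, the largest difference in the list, and Got1 at -0.50. The summed list lay between 1103 and 1497 scaled FPKM in controls and between 1008 and 1220 in knockouts. In it Bcat2, the mitochondrial branched-chain aminotransferase and a known KLF15 target, stood at 67.1, 52.7, 73.7 and 46.1 scaled FPKM in controls 1 to 4 and at 108, 83.1, 94.9 and 78.1 in knockouts 1 to 4. Every knockout value lay above every control value, yet the difference of 0.61 (SE 0.16) had an adjusted p of 0.172, and Klf15 itself was at 0.05. Mccc1, a subunit of methylcrotonyl-CoA carboxylase in leucine breakdown, was at 0.46 (adjusted p = 0.125), also without overlap.

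**Figure D5:**
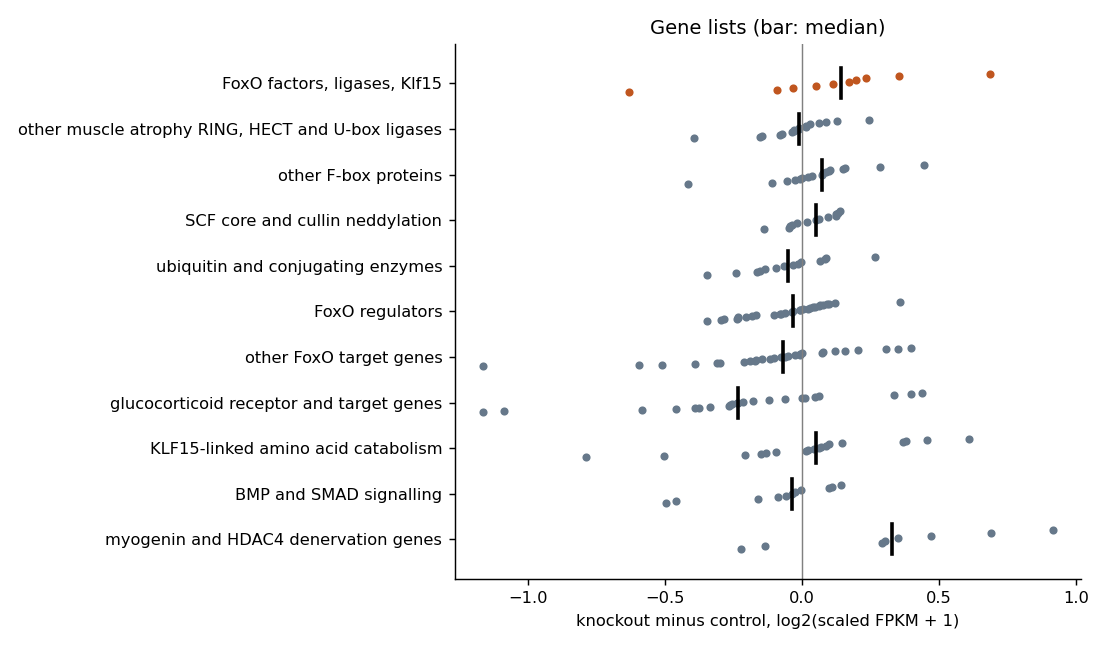
Knockout minus control on the log2(scaled FPKM + 1) scale (horizontal axis) for each tested gene of the 10 members and of 10 lists (rows), with a bar for the median. List medians lie between -0.23 and 0.33, and no point passed over all genes tested.

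The ubiquitin machinery showed small differences throughout. Of other F-box genes 11 of 17 were higher, with a median of 0.07. Fbxl4, an F-box protein that restrains mitophagy, stood at 11.2 ± 0.993 and 15.6 ± 1.43 scaled FPKM, a difference of 0.44 (adjusted p = 0.0915) with no overlap, and Fbxo9 at 36.1 ± 1.91 and 40.5 ± 2.96 (adjusted p = 0.444). Of other RING, HECT and U-box ligases 7 of 17 were higher, with a median of -0.01. Trim54, which encodes MuRF3, a relative of MuRF1, was at -0.39 (adjusted p = 0.561), with control 3 highest at 519. In the SCF core and cullin neddylation list 8 of 13 were higher, with a median of 0.05, where Rbx1 was at -0.14 (adjusted p = 0.503) and the cullin exchange factor Cand1 at 0.13 (adjusted p = 0.584). Among ubiquitin and conjugating enzyme genes 4 of 14 were higher, with a median of -0.05 and Ube2d1 at -0.35 (adjusted p = 0.334).

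Upstream of Fbxo30, 3 of 11 BMP and SMAD genes were higher, with a median of -0.04. The BMP antagonist Nog, noggin, stood at 4.27 ± 0.541 and 2.84 ± 0.477 scaled FPKM (adjusted p = 0.136) with no overlap. The BMP target Id1 stood at 57.7 ± 24.2 and 38.2 ± 7.25 (adjusted p = 0.526), with overlap. In the myogenin and HDAC4 list, which covers the route by which denervation induces Fbxo32 and Trim63, 6 of 8 tested genes were higher, with a median of 0.33. Hdac4 was at 0.47 (adjusted p = 0.188) and the acetylcholine receptor subunit Chrnd at 0.69 (adjusted p = 0.125), neither overlapping between groups, beside the values of Fbxo32 at 0.17 and Trim63 at -0.63. Knockout 1 stood apart in this list: its summed level was 152.5 scaled FPKM, while the other knockouts lay between 70.2 and 80.4 and the controls between 62.0 and 80.8, and its Chrnd was 4.49 against 2.30 to 2.79 in the other knockouts. Marker lists of other cell types were also compared. All 5 endothelial, all 4 smooth muscle and all 4 fibro-adipogenic markers were lower, with medians of -0.18, -0.36 and -0.16 and 0 called. Summed endothelial markers lay between 197 and 226 scaled FPKM in controls and between 168 and 211 in knockouts, smooth muscle markers between 143 and 254 and between 119 and 158, and fibro-adipogenic markers between 158 and 354 and between 153 and 285. These ranges overlapped. Of other marker lists, both tested blood genes, 2 of 3 macrophage genes and the 1 tested satellite cell gene were higher, with medians of 0.24, 0.09 and 0.28, and 1 of 5 muscle fibre genes was higher, with a median of -0.28, again with 0 called. Of the fibre genes, Pvalb and Actn3 were at most 11590 and 1778 scaled FPKM in control 1, knockout 2 and knockout 4, the libraries with Xist. In the libraries without Xist they were at least 16263 and 1946. Tnni2, Mb and Ttn overlapped between these libraries, and the part of this split in the fibre list was not tested. Summed blood markers lay between 170 and 290 scaled FPKM in controls and between 188 and 410 in knockouts, and macrophage markers between 26.2 and 48.2 and between 19.6 and 42.0. Satellite cell markers summed to 8.74 to 10.2 in controls and 9.50 to 12.4 in knockouts. Most of that sum was the tested gene, Cdh15, at 7.31 to 8.40 in controls and 8.38 to 11.1 in knockouts. Myf5, which did not pass the filter, ran the other way, at 0.834 to 1.18 in controls and 0.606 to 0.849 in knockouts. Pax7, also below the filter, overlapped, at 0.388 to 0.859 and 0.365 to 0.712. Adipocyte markers, none of which passed the filter, summed to at most 6.31 in any library. The part of these cells in the members' values was not tested.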

How the data were processed

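Total RNA of snap-frozen tibialis anterior was extracted with Trizol and made into TruSeq RNA v2 libraries, per the labels' protocols, 1 library for each of 8 animals. The authors deposited FPKM per gene, from STAR and Cufflinks on mm10 per the submitters' processing notes. Versions and annotation are not given in the sources used here. Biological replicates were labelled, and p-values set the group difference against the spread between animals. Where Xist was not a covariate and all 8 libraries were used, that spread includes the split by Xist. No counts or depths are given, so count models and counting intervals were not used; relative depth, estimated from low genes (under 0.15 FPKM), lay between 80.4% and 100% of the deepest library. Left out were 23 genes whose status was not OK somewhere.

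Median-of-ratios factors (0.904 to 1.07) scaled the FPKM. Genes reaching 1 scaled FPKM in 4 or more libraries were tested as log2(scaled FPKM + 1) with limma 3.58.1 in R 4.3.3 (eBayes with trend, 4 against 4, threshold 0.05). The method was tested on simulated data. These had independent genes and no split by Xist, so they do not cover the part of that split. Python 3.11.15 with scipy 1.17.1 was used for the rest. Fits without libraries kept the genes and factors of the full set. Alternatives were no scaling, no filter, a mean filter of 5 scaled FPKM, a pseudocount of 0.1, quantile normalization, replicate block, robust eBayes, array weights, Xist (at least 1 FPKM) as covariate and leaving out libraries. Members, lists and alternatives were chosen with earlier results of these data known. Named genes are the members, Carm1, Foxo6, in each list the 2 genes of lowest p where none was called (some are not reported here), and for 4 members the 3 genes of highest r; genes outside this rule are named as such or are markers. File coordinates were compared with GENCODE M21.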

Additional observations from a re-analysis of the deposited data

Results flagged for a closer look

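In 4 of the 10 members 1 library of a group stood far from the other 3, by a gap beyond Dixon's critical value. Foxo1 in control 3 was at 14.6 scaled FPKM, with the next control at 6.42. Trim63 in control 3 was at 416, with the next at 160. Foxo3 in control 1, a library with Xist, was at 4.48, with the next at 1.96. Fbxo32 in knockout 4 was low, at 28.5, with the next knockout at 63.3.

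Among the other genes named, Cldn15 was low in knockout 4, at 1.58 scaled FPKM with the next at 2.60, Ube2d1 was high in knockout 4, at 90.7 with the next at 82.4, and Mccc1 was high in control 1, at 17.2 with the next at 13.7. Over 86 groups of 4 values, 7 values stood out this way, all in control 1, control 3 or knockout 4. Chance alone sets about 1 in 20 groups apart where values are independent and normal. Some of these genes were picked for high r with a member, as Cldn15 with Fbxo32, or for small p. The flags are therefore not independent, and their count is not a test.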

How the results depend on the processing

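Limma called no member that it tested in any of the 19 alternatives. Foxo3, Fbxo30 and Fbxo21 were not tested at a mean of at least 5 scaled FPKM, where 7 members remained. The count of 40 genes called over all genes became 8 without a filter, 15 at a mean of at least 5 scaled FPKM, 103 with array weights, 223 with Xist as a covariate, 3 in the 5 libraries without Xist, 13 without knockout 2 and knockout 4, and between 2 and 27 when 1 library was left out. With the replicate block limma called 0 genes (1314 at an unadjusted p under 0.05). Replicate numbers share only a number: same-numbered libraries deviated together with r of -0.43, -0.19, 0.35 and 0.19. Without scaling 36 genes were higher and 13 lower, against 22 and 18, and the median of all genes shifted to 0.07.

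Directions turned as follows, with adjusted p between 0.661 and 0.994 and causes not tested. In the 5 libraries without Xist Foxo3, Foxo4, Fbxo40 and Klf15 stood at -0.0246, 0.0206, -0.0087 and -0.093. Without knockout 2 and knockout 4 Foxo3, Fbxo40 and Klf15 stood at -0.27, -0.22 and -0.30, in a fit that keeps Xist in control 1 only. With Xist as a covariate Klf15 was at -0.13, and Fbxo21 was at 0.0374 without scaling and 0.0031 with array weights. Leaving out 1 library gave ranges of -0.14 to 0.0042 for Foxo4, -0.0356 to 0.47 for Fbxo32, -0.12 to 0.0371 for Fbxo21 and -0.18 to 0.25 for Klf15. Foxo1, Trim63, Fbxo30 and Fbxo31 kept their direction in each alternative that tested them. Carm1 kept its direction, with adjusted p between 0.0166 and 0.189, and was not called in 12 of the 19. With 4 animals a group, intervals of Foxo1, Foxo3, Fbxo32, Trim63, Fbxo40 and Klf15 span more than 1 on the log2 scale.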
